A study of Homo sapiens with 23 samples.

Results

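The set described here is 7 genes of the RAS, RAF and ERK route, followed through every comparison of the study. They are the small GTPases NRAS and HRAS, the kinases BRAF and MAP2K1, and the feedback genes DUSP6, SPRY2 and SPRED1. They were taken by gene symbol, and all 7 were among the 61217 genes listed in each comparison. Messenger RNA selected with oligo(dT) beads was sequenced in 23 samples of C-33A, an HPV-negative cervical squamous carcinoma line, and CaSki, an HPV-positive line of the same tumour type, derived from a metastasis. The transfected molecules, each at 100 nM, were synthetic mimics of miR-218-5p, of miR-124-3p and of miR-23b-3p, and a negative control. There were 3 samples in each of the 8 groups, apart from miR-124-3p in C-33A with 2. All groups are transfected cells of 1 established line, with no untreated cells among them. Separate cultures are not mentioned in the labels, so the spread behind every p-value may be technical. The comparisons ask which transcripts each mimic changed in each line.

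In this route a receptor, through adaptors and exchange factors, loads RAS with GTP. RAS then recruits RAF kinases such as BRAF, which phosphorylate MEK (the product of MAP2K1 is MEK1), and MEK phosphorylates ERK. ERK activity induces transcripts of its own inhibitors: DUSP6 encodes a cytoplasmic phosphatase that removes phosphate from ERK, SPRY2 encodes a Sprouty protein that dampens receptor signalling, and SPRED1 encodes an adaptor that brings neurofibromin to RAS. Expression of DUSP6 and the Sprouty genes is widely used as a readout of ERK output. A microRNA pairs through its seed, the bases near its 5′ end, with sites in the 3′ UTR of messenger RNAs, and such pairing usually lowers the level of the transcript.

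The mature microRNAs whose seeds were searched are shown with the seed, bases 2 to 8, in capitals. Both are written 5′ to 3′ and come from RefSeq (GRCh38.p14). They do not share a seed.

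miR-23b-3p: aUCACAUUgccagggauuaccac
miR-218-5p: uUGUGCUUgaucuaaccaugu

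The sequence complementary to the seed is AATGTGA for miR-23b-3p and AAGCACA for miR-218-5p. The transcribed strand of the longest annotated 3′ UTR of each gene was searched (GENCODE 29, GRCh38). For miR-23b-3p, BRAF held 2 matches and SPRY2 held 1. For miR-218-5p, NRAS held 2 matches, and BRAF and SPRED1 held 1 each. HRAS, MAP2K1 and DUSP6 held no 7-base match for either. Of matches to 6 bases of the seed, HRAS held 2 for miR-218-5p and MAP2K1 held 1 for miR-23b-3p. The 7 stretches with a 7-base match are shown because they are places where a direct effect of these 2 mimics could be looked for. Each is 25 bases of the transcribed strand, with the match in capitals.

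BRAF, miR-23b-3p, first: taataacagttttgAATGTGAgaaa
BRAF, miR-23b-3p, second: gatagggaaaaattAATGTGAgggt
SPRY2, miR-23b-3p: tgtacattcggaagAATGTGAatca
NRAS, miR-218-5p, first: aaagatgaaactgaAAGCACAtgaa
NRAS, miR-218-5p, second: tccaagtatgttctAAGCACAgaag
BRAF, miR-218-5p: aaattatttttttaAAGCACAtaat
SPRED1, miR-218-5p: caactttttttttaAAGCACAgatg

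All 7 matches lie in the 3′ UTR part of an exon. The BRAF matches to miR-23b-3p begin 951 and 5859 nt into a 3′ UTR of 7167 nt, at chr7:140725537-140725543 and chr7:140720629-140720635 on the minus strand. The BRAF match to miR-218-5p begins at 4276 nt, at chr7:140722212-140722218. The SPRY2 match begins 458 nt into 782 nt, at chr13:80336294-80336300 on the minus strand, and is the only one of the 7 followed by an A. The NRAS matches begin 867 and 2235 nt into 3625 nt, at chr1:114707221-114707227 and chr1:114705853-114705859 on the minus strand. The SPRED1 match begins 790 nt into 5585 nt, at chr15:38352454-38352460 on the plus strand.

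Such matches are common in long 3′ UTRs. Of 19108 protein coding 3′ UTRs searched, 18.4% held the miR-23b-3p match and 13.99% the miR-218-5p match. Among 3′ UTRs within 20% of the length of that of BRAF, 58.0% held the miR-23b-3p match and 49.4% the miR-218-5p match. For 3′ UTRs of about the length of that of NRAS the share with a miR-218-5p match was 30.4%, and for that of SPRED1 it was 39.8%. For short 3′ UTRs like that of SPRY2 the share with a miR-23b-3p match was 8.58%. A match is a description of these letters and is no evidence of binding.

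**Figure D1:**
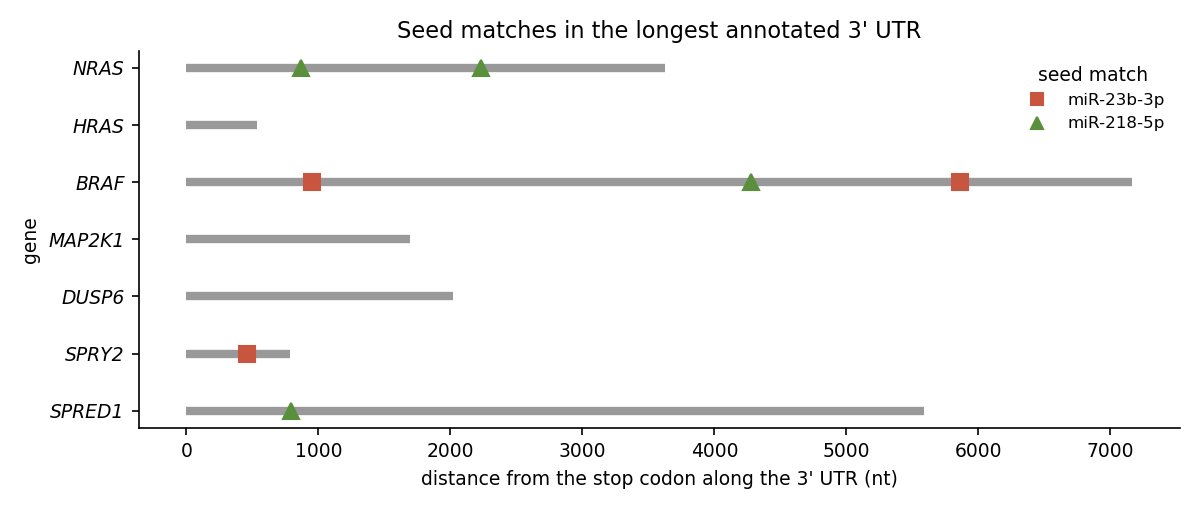
Positions of seed matches in the longest annotated 3′ UTR of the 7 genes. The x axis is the distance from the stop codon in nt, each grey bar is 1 3′ UTR, squares are miR-23b-3p matches and triangles are miR-218-5p matches; BRAF has the longest 3′ UTR (7167 nt) and the only matches to both.

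By GENCODE 29 on GRCh38 the genes lie at chr1:114704469-114716894 (NRAS), chr11:532242-537287 (HRAS), chr7:140719327-140924928 (BRAF), chr15:66386817-66492312 (MAP2K1), chr12:89347232-89353271 (DUSP6), chr13:80335976-80340951 (SPRY2) and chr15:38252326-38357249 (SPRED1). MAP2K1 and SPRED1 are on the plus strand and the others on the minus strand. No source used here gives the strand setting of the read counting, and 3 of the genes share exon bases with genes of the opposite strand. The antisense gene AC024909.2 covers 40.5% of the exon bases of DUSP6. For MAP2K1 the shares are 11.5% with AC116913.1 and 5.75% with SNAPC5, and for BRAF 5.29% with NDUFB2. If the counting ignored strand, reads from the bases that DUSP6 shares with its antisense partner could not be told apart. In the authors' deposited tables the processed copy BRAFP1 had an average log2 CPM (CPM is the read count scaled to library size) of -2.95 or lower, and MAP2K1P1 one between 0.40 and 1.07.

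The tables hold 1 average per comparison and no value per sample, so the average log2 CPM over the mimic and control samples is the level that can be given. For NRAS, in the authors' deposited C-33A tables, the average log2 CPM was 7.79 with miR-124-3p, 8.17 with miR-23b-3p and 7.74 with miR-218-5p. In the deposited CaSki tables, in the same order, it was 6.73, 7.17 and 6.77. Each line's miR-23b-3p table thus held the highest NRAS average of its 3. The control samples are the same in all 3 tables of a line.

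BRAF averaged 5.89, 5.76 and 5.91 log2 CPM in the authors' deposited C-33A tables and 5.98, 5.94 and 6.004 in the CaSki tables. MAP2K1 ranged from 5.43 to 5.49 in the deposited C-33A tables and from 5.73 to 5.75 in the CaSki tables. Both kinases were listed slightly higher in CaSki than in C-33A.

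SPRED1 averaged 5.98 to 6.12 log2 CPM in the authors' deposited C-33A tables and 4.99 to 5.07 in the CaSki tables. DUSP6 averaged 3.53 to 3.68 in the deposited C-33A tables and 2.47 to 2.53 in the CaSki tables. SPRY2 averaged 0.56 to 0.74 in the deposited C-33A tables and 1.93 to 2.16 in the CaSki tables. NRAS, SPRED1 and DUSP6 were thus listed higher in C-33A and SPRY2 higher in CaSki. The tables of the lines were normalized separately and the 3 tables of a line share controls, so these level differences carry no test.

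Levels of different genes were compared per length, as log2 CPM per 1000 nt of annotated exon, averaged over the 3 tables of a line. From the authors' deposited averages the order in C-33A was NRAS at 5.75, MAP2K1 at 3.55, SPRED1 at 3.02, DUSP6 at 1.41, BRAF at 1.31 and SPRY2 at -0.95. In CaSki it was NRAS at 4.74, MAP2K1 at 3.83, SPRED1 at 1.997, BRAF at 1.42, SPRY2 at 0.46 and DUSP6 at 0.28. In C-33A the DUSP6 and BRAF values of the 3 tables overlapped, so that their order is not resolved. BRAF has 23432 nt of annotated exon in all transcripts together, and with its longest transcript of 9578 nt its level per 1000 nt became 2.60 in C-33A and 2.71 in CaSki. DUSP6 and SPRY2 thus changed places between the lines, and NRAS and MAP2K1 led in both.

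**Figure D2:**
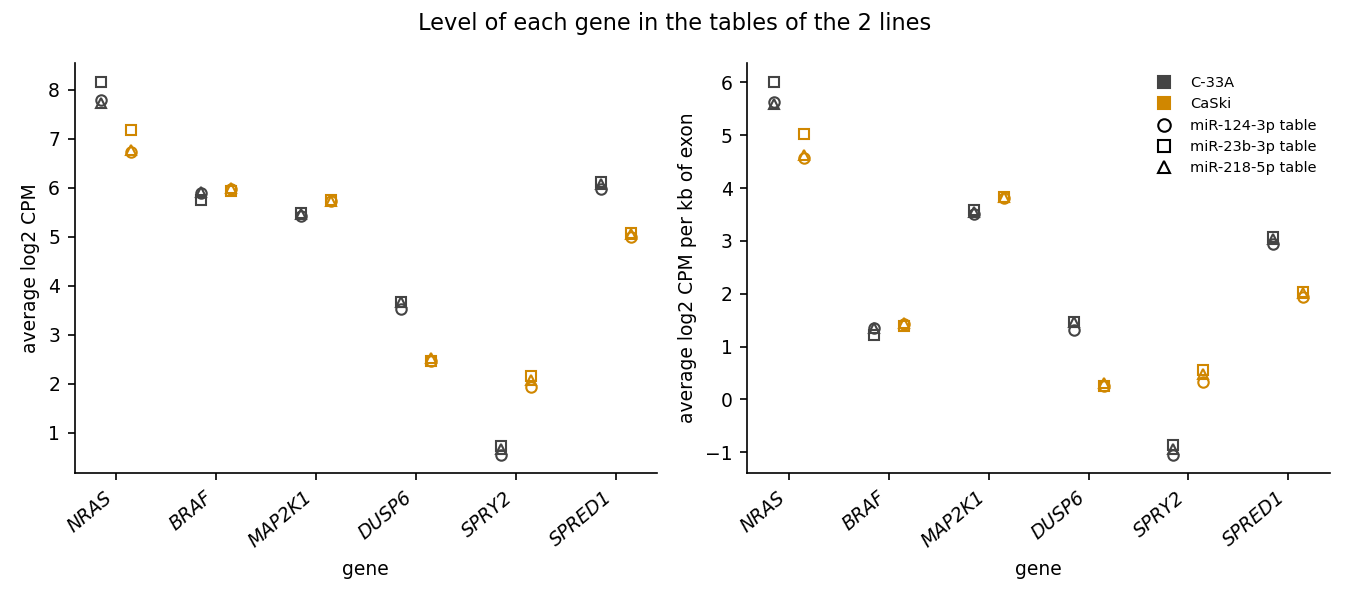
Levels of the 6 genes with readable values, as average log2 CPM (left) and average log2 CPM per 1000 nt of annotated exon (right). Each symbol is 1 comparison table, grey for C-33A and orange for CaSki; NRAS, DUSP6 and SPRED1 lie higher in C-33A and SPRY2 higher in CaSki.

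HRAS could not be read as an expression level in these tables. In all 3 C-33A tables the authors' deposited average log2 CPM was that table's lowest value, -3.61, -3.60 and -3.64, with a log2 fold change of 0. In the CaSki tables the authors' deposited average was 2.77, 3.02 and 2.74 and the log2 fold change -11.82, -10.62 and -11.87, with edgeR p = 0.229, 0.0627 and 0.226. A fold change of that size with such a p was not particular to HRAS. In the deposited CaSki values, 205 genes (miR-124-3p), 244 genes (miR-23b-3p) and 209 genes (miR-218-5p) had a log2 fold change beyond 8 in size, all of them lower with the mimic and none at an FDR under 0.05. Of these, 189 were common to the 3 CaSki tables, which share their controls, and 141 of the 189 were at the lowest value in all 3 C-33A tables. The C-33A tables held 0 such genes.

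The genes listed with HRAS in this way include some that proliferating cells use in quantity, named here after their values were seen. TUBB, a tubulin gene, was at the lowest value in all 3 deposited C-33A tables and at log2 fold changes of -15.10, -17.41 and -16.93 in the deposited CaSki tables. RPS18, a ribosomal protein gene, was at the lowest value in 2 of the 3 deposited C-33A tables and at -17.30, -16.09 and -14.83 in the CaSki tables. HRAS was therefore only listed at the floor in C-33A, and no fold change of it is given as a result in CaSki. The cause of the pattern was not tested. None of the other 6 genes, nor any of the 63 further pathway genes described below, had a log2 fold change beyond 8 in size. IER3, an ERK-induced transcript of that list named here after its values were seen, was at the lowest value in 2 of the 3 deposited C-33A tables and had uncalled log2 fold changes of -1.86, -2.25 and -2.03 (SE 1.33, 1.42 and 1.36) in the deposited CaSki tables, at averages of 4.42 to 4.64 log2 CPM.

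The line labels were checked on marker genes, which showed an epithelial pattern in CaSki but not in C-33A. In the authors' deposited CaSki tables, all 7 epithelial markers averaged 2 log2 CPM or more, while 0 of 7 did for C-33A, where 5 of 7, among them CDH1 and KRT19, lay under 0. KRT8 and KRT18 averaged 0.63 to 0.88 in the deposited C-33A tables. Of 6 fibroblast markers, COL3A1 (7.11 to 7.22) and COL1A2 (2.93 to 2.97) passed 2 there, and of 5 leukocyte markers PTPRC did (2.45 to 2.67). The summed level of the list in the deposited C-33A tables was 2.15 to 2.21 for epithelial, 7.20 to 7.30 for fibroblast, 2.56 to 2.76 for leukocyte and -1.27 to -1.07 for endothelial markers. In the CaSki tables these sums were 12.80 to 12.83, 1.86 to 2.02, -0.99 to -0.96 and 0.86 to 1.02. The part of these markers in the differences between the lines was not tested.

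NRAS and BRAF were the genes called as changed, both upwards and both in CaSki with miR-23b-3p. The call of BRAF depended on the processing, as did the lack of a call for NRAS in C-33A, as given below. The call of a rise or fall was an FDR under 0.05 in the authors' deposited table, where the FDR is edgeR's p-value adjusted by Benjamini-Hochberg over all 61217 genes. With miR-23b-3p in CaSki, 2 of the 7 genes rose and 0 fell. Of all listed genes 2.4% were called in that comparison and 1.41% rose. Of the 11374 genes averaging at least 2 log2 CPM, the range in which NRAS and BRAF lie, 6.59% rose. In the other 5 comparisons 0 of the 7 genes were called. The share of all genes called in either direction in C-33A was 0.162% with miR-124-3p, 0.0474% with miR-23b-3p and 0.0751% with miR-218-5p. In CaSki it was 0.305% with miR-124-3p and 0.0245% with miR-218-5p. At an unadjusted edgeR p under 0.05 there were 3, 1 and 1 of the 7 in C-33A, against 3.07%, 1.97% and 2.27% of all genes. In CaSki there were 0, 2 and 1, against 4.71%, 9.85% and 2.54%. The shares of all genes include 21782 to 22845 genes per comparison at the lowest value, where NRAS, BRAF, MAP2K1, DUSP6, SPRY2 and SPRED1 never lay. For the unadjusted counts, the share over genes at levels like theirs was not computed.

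**Figure D3:**
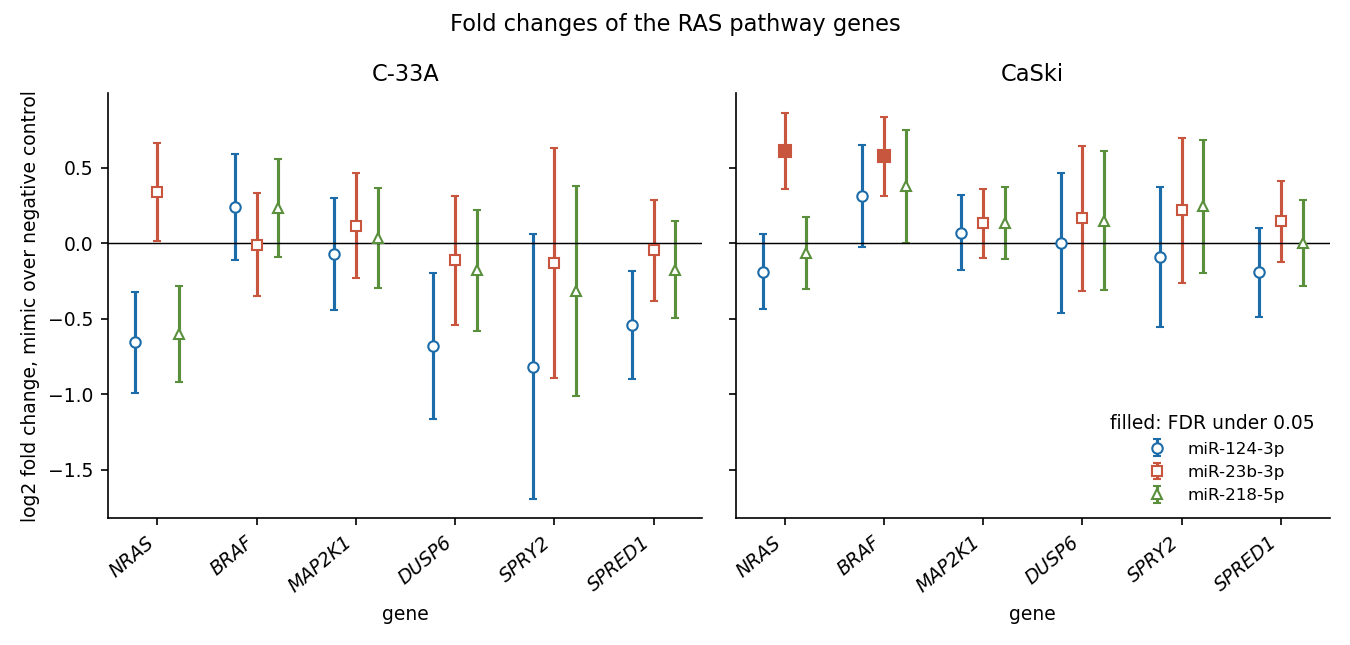
Log2 fold change of each gene, mimic over negative control, in C-33A (left) and CaSki (right), from the authors' deposited tables. Points are the fold changes of the 3 mimics, bars are 95% intervals from the recovered SE, and filled points have an FDR under 0.05; the filled points are NRAS (0.61) and BRAF (0.57) with miR-23b-3p in CaSki. HRAS is not drawn.

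NRAS, the GTPase at the head of the set, rose 1.53-fold with miR-23b-3p in CaSki (log2 fold change 0.61, SE 0.129, FDR 0.000598 in the authors' deposited table, edgeR). In the deposited C-33A table the same mimic gave 0.34 (95% interval 0.01 to 0.66, FDR 1). With miR-124-3p NRAS had a log2 fold change of -0.66 in the deposited C-33A table (interval -0.99 to -0.32) and of -0.19 in the CaSki table (-0.44 to 0.06). With miR-218-5p, whose seed match NRAS holds in 2 places, it had -0.60 in the deposited C-33A table (-0.92 to -0.28) and -0.07 in the CaSki table (-0.30 to 0.17). The sign was thus the same in both lines for each mimic, above 0 with miR-23b-3p and below 0 with the others. The comparisons of a line share their control samples, so the 3 values of a line are not independent.

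Both lower C-33A values of NRAS missed the threshold. In the authors' deposited tables the FDR was 0.0663 with miR-124-3p (p = 0.000123, edgeR) and 0.198 with miR-218-5p (p = 0.000223). The adjustment covers all listed genes, of which 15466 averaged at least 0 log2 CPM in the first of these tables. When the deposited p was adjusted over genes at or above that level alone, the values became 0.0169 and 0.0498, and NRAS passed in both. With a length and GC trend of the fold changes removed, they were -0.55 (adjusted p = 0.303) and -0.45 (adjusted p = 1).

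NRAS has no 7-base match to miR-23b-3p in the 3′ UTR searched, and no 6-base match to it. With the length and GC trend removed, the rise of NRAS in CaSki was 0.58 (adjusted p = 0.00206).

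BRAF, the RAF kinase with the strongest activity towards MEK, rose 1.49-fold with miR-23b-3p in CaSki (log2 fold change 0.57, SE 0.134, FDR 0.0025 in the authors' deposited table, edgeR). This is the microRNA with 2 seed matches in the BRAF 3′ UTR shown above. In the deposited C-33A table the value was -0.01 (interval -0.35 to 0.33). BRAF thus differed from 0 in 1 line and lay next to 0 in the other with the same mimic.

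With the other mimics BRAF was above 0 in the authors' deposited tables without being called. It had 0.24 in C-33A and 0.31 in CaSki with miR-124-3p, and 0.23 and 0.38 with miR-218-5p (the authors' deposited p = 0.0478 for the last, FDR 1, edgeR). In CaSki its 3 values, which share controls, were all above 0.3. Genes with long transcripts had higher fold changes in the deposited CaSki table of miR-23b-3p: the median log2 fold change went from -0.18 below 1000 nt to 0.28 at 8000 nt and over, the class of BRAF. With the length and GC trend removed, BRAF had 0.30 (adjusted p = 0.333) and was no longer called. The cause of the length trend was not tested.

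MAP2K1, the gene of the kinase that activates ERK, stayed within 0.14 of 0 in every comparison. Its log2 fold changes in the authors' deposited C-33A tables were -0.07, 0.12 and 0.03 for miR-124-3p, then miR-23b-3p, then miR-218-5p. In the CaSki tables they were 0.07, 0.13 and 0.13. The 95% intervals reached from -0.44 to 0.46 over the C-33A values and from -0.17 to 0.37 over the CaSki values, so changes beyond these bounds lie outside every interval of that line. MAP2K1 was the steadiest of the 6 genes by the range of its values.

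The 3 feedback genes were all below 0 with miR-124-3p in C-33A, and none was called. DUSP6, the ERK phosphatase, had a log2 fold change of -0.68 (interval -1.16 to -0.20, p = 0.00585, FDR 0.805, edgeR) in the authors' deposited table. SPRED1 had -0.54 (interval -0.90 to -0.19, p = 0.00288, FDR 0.568) in the authors' deposited values. SPRY2, at an average of 0.56 log2 CPM, had -0.82 (interval -1.69 to 0.06, p = 0.0681, FDR 1) in the authors' deposited values. This comparison rests on 2 mimic samples, and the intervals of DUSP6 and SPRED1 leave 0 outside. In CaSki the same mimic gave 0.00 for DUSP6, -0.09 for SPRY2 and -0.19 for SPRED1 in the deposited table, each with an interval that holds 0.

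With the other mimics the feedback genes lay nearer to 0 in C-33A than with miR-124-3p. SPRED1 also did in CaSki, while DUSP6 and SPRY2 lay farther from 0 there. In the authors' deposited C-33A tables DUSP6, SPRY2 and SPRED1 had -0.11, -0.13 and -0.05 with miR-23b-3p and -0.18, -0.32 and -0.17 with miR-218-5p. In the CaSki tables they had 0.17, 0.22 and 0.14 with miR-23b-3p and 0.15, 0.24 and 0.00 with miR-218-5p. Each of these 12 intervals holds 0. All 6 C-33A values were thus below 0 and none of the 6 CaSki values was. With the length and GC trend removed SPRED1 turned to 0.024 with miR-23b-3p in C-33A. In CaSki SPRED1 turned to -0.054 with miR-23b-3p and to -0.097 with miR-218-5p. The values of a line share controls and are not independent. Of all genes tested, 50.6% (miR-23b-3p) and 62.7% (miR-218-5p) had a lower log2 fold change in C-33A than in CaSki. SPRY2, which holds the miR-23b-3p match followed by an A, and SPRED1, which holds a miR-218-5p match, were not called with the mimic of their match in either line.

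The difference between the lines was tested for each gene as the C-33A log2 fold change minus the CaSki one, with a two-sided normal test on the recovered SEs. Adjustment was by Benjamini-Hochberg over the genes that averaged at least 0 log2 CPM in both tables. None of the 6 readable genes passed an adjusted p of 0.05 with any mimic. Over all genes tested, 0 of 12970 passed with miR-124-3p (325, or 2.51%, at an unadjusted p under 0.05), 220 of 12905 (1.7%) with miR-23b-3p (15.6% unadjusted), and 0 of 12902 with miR-218-5p (201, or 1.56%, unadjusted). For NRAS the difference was -0.53 with miR-218-5p (interval -0.93 to -0.14, adjusted p = 1) and -0.47 with miR-124-3p (-0.88 to -0.05, adjusted p = 1). For BRAF with miR-23b-3p it was -0.58 (-1.01 to -0.15, adjusted p = 0.133). That BRAF was called in CaSki and not in C-33A is therefore not shown to be a difference between the lines.

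The sign of the difference was the same for all 6 readable genes, which were chosen with earlier results of these data known. For each of the 3 mimics, 6 of 6 genes had a lower log2 fold change in C-33A than in CaSki, where 51.8%, 50.6% and 62.7% of all genes tested did with miR-124-3p, with miR-23b-3p and with miR-218-5p. The median difference of the 6 genes was -0.41, -0.28 and -0.25, against -0.01, -0.01 and -0.06 over all genes tested. The further kinase genes ARAF, MAP2K2 and MAPK3 did not share this sign throughout. In the same order of mimics, ARAF had differences of -0.04, 0.25 and -0.05. MAP2K2 had 0.27, 0.47 and 0.06, and MAPK3 had 0.45, 0.42 and -0.19. The 3 differences of a gene share both lines' controls and are not independent of each other. With the length and GC trend removed, 4 of these 18 differences lay above 0, all of them of BRAF or SPRED1.

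**Figure D4:**
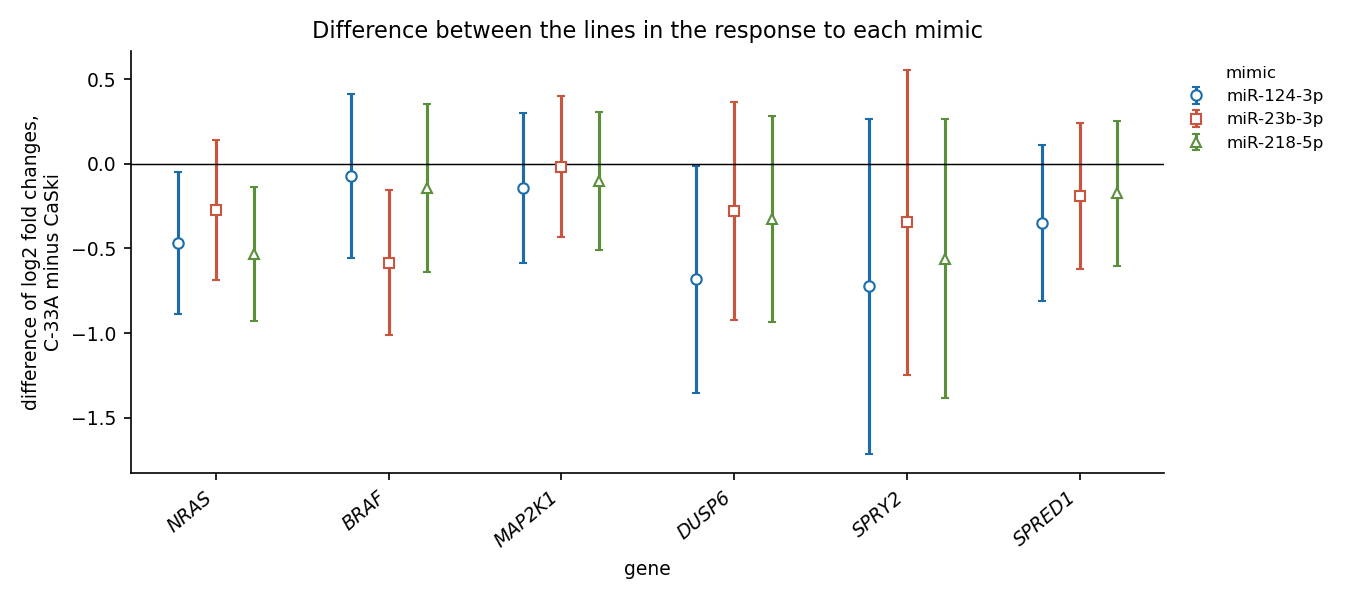
Difference between the lines in the log2 fold change, C-33A minus CaSki, for the 6 readable genes, with 95% intervals. Each point is 1 mimic; all points lie below 0 and none passes an adjusted p of 0.05.

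Further genes of the route were described from a list of 63, all of which were in the tables, arranged by role from background knowledge. In CaSki with miR-23b-3p, 8 of the 63 rose and 3 fell in the authors' deposited table. Of all listed genes 2.4% were called in either direction, but 22686 of these genes lay at the lowest value. Of the 63, 56 averaged at least 0 log2 CPM. With adjustment over genes at or above 0 log2 CPM, 16.4% of those genes were called, and 16 of the list. At or above 2 log2 CPM these were 21.4% and 15. With the length and GC trend removed, 4 of the list rose and 1 fell. The 4 were not all among the 8, of which RASA1, SPRED2 and EGR1 kept their call. With miR-124-3p, 1 rose and 1 fell in CaSki and 1 fell in C-33A, and in the other 3 comparisons 0 were called (4, 4 and 8 at an unadjusted edgeR p under 0.05). The median log2 fold change of the list over genes averaging at least 0 log2 CPM was 0.02 with miR-23b-3p in CaSki and -0.13 with miR-124-3p in C-33A, against 0.00 for all such genes in both. In the remaining deposited tables it lay between -0.05 and 0.06.

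Among the RAS GTPases, 1 of the 3 described beside NRAS and HRAS fell with miR-23b-3p in CaSki, where 2.4% of all listed genes were called. RRAS2, an R-RAS relative, fell by 0.48 with the same mimic in the authors' deposited CaSki table. It had -0.31 (adjusted p = 0.202) with the length and GC trend removed and was then not called. RRAS fell by 1.12 with miR-124-3p in CaSki (FDR 0.00073 in the deposited table) and had -0.53 in C-33A, not called.

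Upstream of RAS, the called genes rose with miR-23b-3p in CaSki. SOS1, the exchange factor that loads RAS with GTP, had a log2 fold change of 0.49, the phosphatase and adaptor PTPN11 (SHP2) one of 0.45, and the docking protein gene GAB1 one of 0.59 in the authors' deposited table. These were 3 of 8 adaptors and exchange factors. Of the 8, 3 were below 0 and 0 were called as fallen. In that comparison 1.41% of all listed genes rose, and 6.59% of those averaging at least 2 log2 CPM. SOS1, PTPN11 and GAB1 were not called with the length and GC trend removed. They then had 0.26 for SOS1 (adjusted p = 0.428), 0.32 for PTPN11 (adjusted p = 0.144) and 0.39 for GAB1 (adjusted p = 0.262). RASA1, which encodes a GTPase activating protein that turns RAS off, rose by 0.50 in the same deposited table, 1 of 7 such genes, and kept its call with the trend removed (0.42, adjusted p = 0.0426). FNTA, a subunit of the enzymes that attach the lipid anchor of RAS, fell by 0.43. Centred on the median of all genes, FNTA missed the threshold (adjusted p = 0.0549). With the length and GC trend removed it kept its call, at -0.62 (adjusted p = 0.00104).

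Of the other core kinases, ARAF, MAP2K2 and MAPK3 (ERK1) were not called in any comparison. They had log2 fold changes between -0.43 and 0.45 in the authors' deposited C-33A tables. In the CaSki tables the range was -0.39 to 0.07. Of the scaffolds and modulators, KSR1, a scaffold for RAF and MEK, rose with miR-124-3p in CaSki (1.25, FDR 0.0248 in the deposited table) at an average log2 CPM of 1.43. With the length and GC trend removed its value was 1.11 (adjusted p = 0.0534). PEBP1, the RAF kinase inhibitor protein gene, fell by 0.39 with miR-23b-3p in CaSki. With the trend removed it had -0.21 (adjusted p = 0.51) and was no longer called.

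Downstream of ERK, the called genes were RPS6KA3, PHLDA1, SPRED2 and EGR1. RPS6KA3 (RSK2), a kinase that ERK phosphorylates, rose by 0.63 with miR-23b-3p in CaSki (FDR 0.000352 in the authors' deposited table). PHLDA1, an ERK-induced transcript, rose by 0.68 in the same deposited table (FDR 0.000518). Neither was called with the length and GC trend removed, at 0.41 for RPS6KA3 (adjusted p = 0.0582) and 0.44 for PHLDA1 (adjusted p = 0.0681). SPRED2, the close relative of SPRED1, rose by 0.70 there (FDR 0.0175), where SPRED1 had 0.14. EGR1, an immediate early transcription factor induced by ERK, fell by 1.22 with miR-124-3p in C-33A (FDR 5.85e-06 in the deposited table). In CaSki EGR1 was barely detected, at an average log2 CPM of -0.76, and was called as risen with miR-23b-3p (1.97, SE 0.590, FDR 0.0381). None of the 5 further ERK phosphatases was called in any comparison.

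The EGR1 fall and the 3 feedback genes belong to the same C-33A table of miR-124-3p. Of the 9 ERK-induced transcripts that averaged at least 0 log2 CPM in that deposited table, 8 were below 0 and 1 was above it, and the median log2 fold change was -0.31. Of the 4 measured ERK phosphatases 3 were below 0, with a median of -0.35. The C-33A table rests on 2 mimic samples. Over the whole list 38 of 56 genes were below 0 there, with a median of -0.13. All 7 measured receptor adaptors and exchange factors were below 0, while 5 of 6 GTPase activating proteins were above it. The lean was thus not particular to ERK-induced transcripts. In the CaSki table of the same mimic 6 of 10 ERK-induced transcripts were below 0, with a median of -0.04. These are counts over a list and carry no test.

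**Figure D5:**
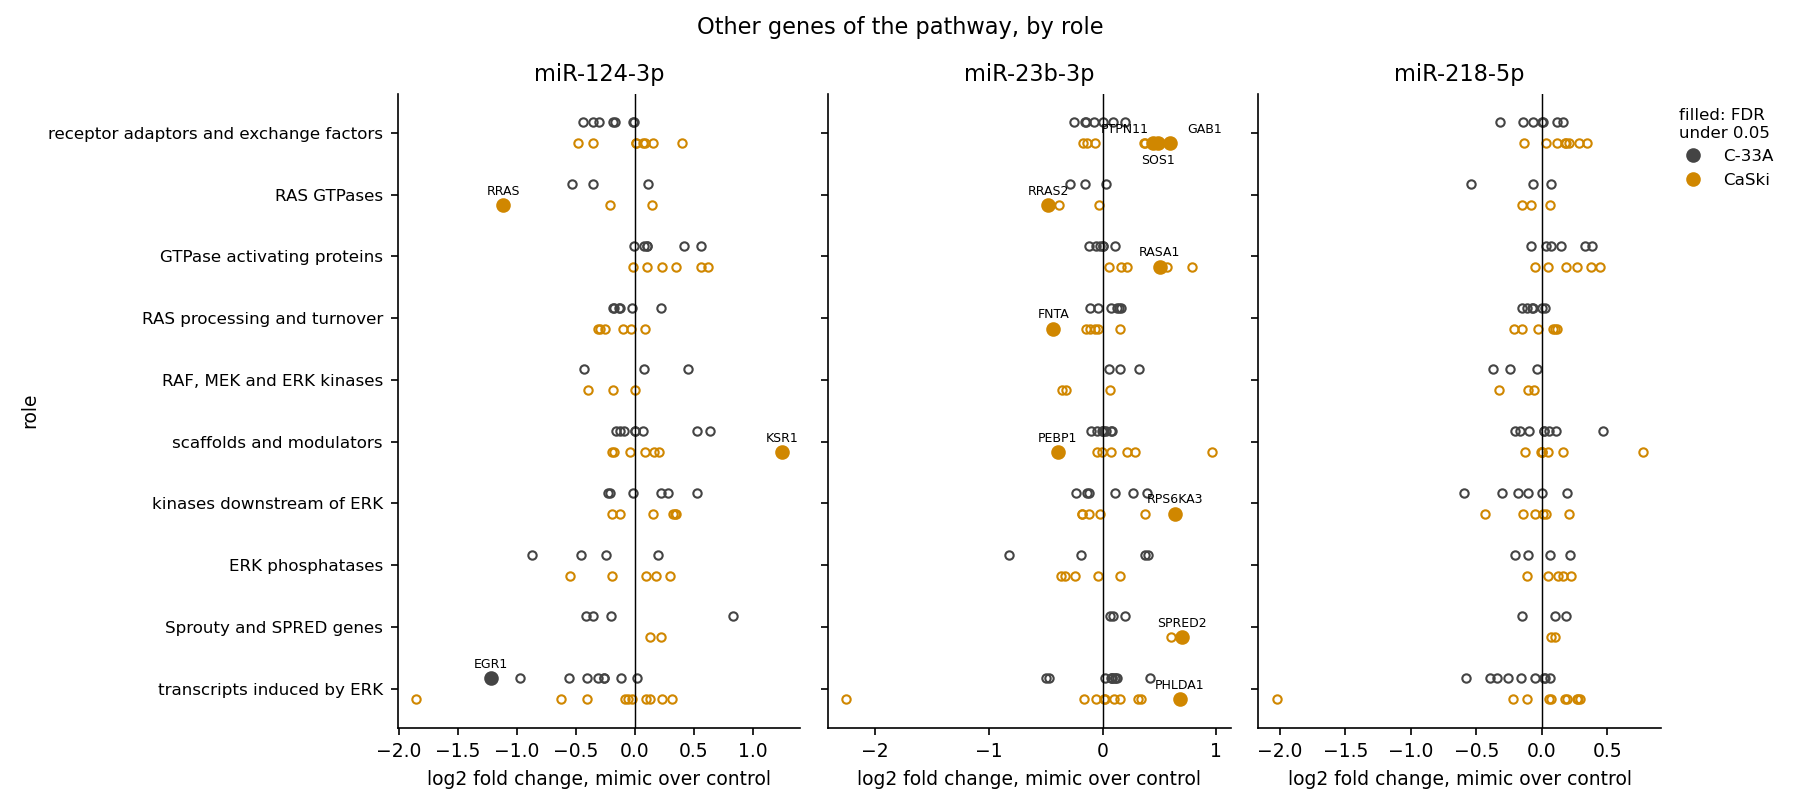
Log2 fold changes of the other pathway genes by role, mimic over control, for the 3 mimics, over genes averaging at least 0 log2 CPM. Grey circles are C-33A and orange circles CaSki, and filled, named circles have an FDR under 0.05 in the authors' deposited tables; most named circles are CaSki genes with miR-23b-3p.

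The genes whose pattern was most like that of the called genes were found by the root mean square difference of the 6 log2 fold changes, over 9594 genes averaging at least 2 log2 CPM in all 6 deposited tables. For NRAS they were CREBRF (0.14), ZMAT3 (0.202) and PLAG1 (0.214), where the median over all genes was 0.494. For BRAF they were NCBP3 (0.0457), UBXN7 (0.0472) and NEO1 (0.0545), with a median of 0.386. These genes were picked for their likeness, so their own fold changes add nothing to those of NRAS and BRAF.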

How the data were processed

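The submitters' processing notes name edgeR 3.36.0, featureCounts 2.0.3, STAR 2.7.10b and FastQC 0.73, with GRCh38 (hg38). The files used here are 6 tables, 1 for each mimic against the negative control of its line. Per the file headers, the authors give for 61217 genes a log2 fold change and average log2 CPM, an F score, and a p-value with its FDR. Adjusting the deposited p-values by Benjamini-Hochberg over all rows returned that FDR. No values per sample are used here, so depth is unknown and replicates could not be compared. The members and lists were chosen with earlier results of these data known.

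The SE is the log2 fold change divided by the normal quantile of the deposited p-value, and 95% intervals are 1.96 SE to each side. Taken from the deposited F score instead, the SE of NRAS with miR-124-3p in C-33A was the same (0.171), while with miR-23b-3p in CaSki it was 0.110 in place of 0.129. The lines were therefore not tested with the same pooling of the spread across genes.

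Genes named beside the members were those of the 63-gene list called at an FDR under 0.05 in any comparison, ARAF, MAP2K2 and MAPK3, and the 3 genes most alike to each called member. Alternatives were an FDR of 0.01 or 0.10, adjustment over genes averaging at least 0 or 2 log2 CPM, centring on the median, and removal of a length and GC trend (lowess, span 0.3, 5 rounds, statsmodels 0.14.6). Lengths and GC were at hand for 7 of 7 members and 63 of 63 list genes. The test between lines was tried on simulated data: of 200 changed genes among 12902 with miR-23b-3p it recovered 48.5% at a log2 difference of 1 and 89.0% at 2. Some items of the planned list are not reported here. Scripts ran in Python 3.11.15 with pandas 2.3.3, numpy 2.4.6 and scipy 1.17.1.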

Additional observations from a re-analysis of the deposited data

Results flagged for a closer look

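No member of the set differed between the lines by the test of the difference. Of the further pathway genes named, 2 did with miR-23b-3p, as C-33A minus CaSki log2 fold changes (normal test on recovered SEs, adjusted over 12905 genes). Of all genes tested, 220 of 12905 (1.7%) did. Both genes were named because they were called as risen in CaSki with this mimic. That choice favours a difference below 0, so the 2 differences are not separate evidence. PHLDA1 differed by -1.17 (adjusted p = 0.0227), from -0.50 and 0.68. RPS6KA3 differed by -0.77 (adjusted p = 0.0297), from -0.14 and 0.63. With the length and GC trend removed the differences were -0.94 and -0.50, with adjusted p = 0.186 and 0.400.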

How the results depend on the processing

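No paired analysis was possible because the tables hold no values per sample, and for the same reason no sample could be left out. The count of members called became 1 (NRAS, lower) in C-33A with miR-124-3p at an FDR of 0.10 or with adjustment over genes averaging at least 0 or 2 log2 CPM, and 1 (NRAS, lower) in C-33A with miR-218-5p with either adjustment. For CaSki with miR-23b-3p it became 1 with the length and GC trend removed. The list count became 1 in C-33A with miR-218-5p (adjustment over genes of 2 or more), 1 in CaSki with miR-124-3p (FDR of 0.01, or trend removed), and 4 (FDR of 0.01) or 5 (no trend) in CaSki with miR-23b-3p, where it was 11 as deposited, 13 at an FDR of 0.10, 10 when centred, and 16 or 15 with adjustment over genes of at least 0 or 2. Over all alternatives, 6 member values turned sign, 5 came past the threshold and 1 no longer passed.

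Signs turned for values near 0. With the trend removed, C-33A values with miR-23b-3p became 0.048 (BRAF) and 0.024 (SPRED1), and CaSki values became -0.052 (DUSP6, miR-124-3p), -0.054 (SPRED1, miR-23b-3p) and -0.097 (SPRED1, miR-218-5p). Centring made the last -0.017. Line differences became 0.064 (BRAF, miR-124-3p), 0.078 (SPRED1, miR-23b-3p), 0.035 (BRAF, miR-218-5p) and 0.028 (SPRED1, miR-218-5p) with the trend removed. The cause was not tested.

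Over all genes, calls at an FDR of 0.05, then at 0.01, then adjusted over genes of at least 0 and of at least 2 log2 CPM, were 99, 59, 175 and 199 (C-33A, miR-124-3p), 29, 14, 60 and 62 (C-33A, miR-23b-3p), 46, 29, 70 and 83 (C-33A, miR-218-5p), 187, 77, 374 and 436 (CaSki, miR-124-3p), 1472, 747, 2542 and 2430 (CaSki, miR-23b-3p) and 15, 2, 24 and 29 (CaSki, miR-218-5p). With the trend removed, which also limits the test to the 36545 genes with a length and GC value, they were 17 (C-33A, miR-23b-3p), 26 (C-33A, miR-218-5p) and 886 (CaSki, miR-23b-3p). In C-33A with miR-218-5p the split of 4 risen and 42 fallen became 6 and 20 with the trend removed, and in C-33A with miR-124-3p 19 and 80 became 6 and 81.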
